A study of Mus musculus with 3 samples.

Results

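Collagens are proteins of the extracellular matrix in which 3 chains with a repeated glycine-X-Y triplet wind into a triple helix. The collagen genes of the mouse were described in 3 RNA-seq libraries of embryos at E6.5, when gastrulation begins. Members were all genes of the table whose symbol has the form *Col*, a type number, *a* and a chain number, which gave 44 of 23421 genes. They were divided by general knowledge into 11 genes for fibrillar collagens, 9 for collagens of basement membranes and 24 for other collagens.

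Each library came from 1 genotype, wild type, tw18/+ or tw18/tw18, and the labels give the strain of all as 129/SvEv. The study, however, names non-inbred backgrounds that differ between embryos as a possible reason for its variable phenotypes. Its text states matings of tw18/+ mice for the embryos stained by in situ hybridization. The tw18 haplotype lacks a stretch of Chr 17 that holds many genes besides *Ppp2r1a*, the gene for a scaffolding subunit of the phosphatase PP2A. The homozygous library therefore differs from the others by more than this gene. From a knockout and a rescue by transgene, the study attributes the lethal phenotype to loss of *Ppp2r1a* alone. No knockout or rescued embryo is among these libraries. The labels name the tissue as epiblast, while the methods of the study describe an embryo proper of epiblast with its visceral endoderm, taken after the extra-embryonic part was cut off for genotyping. In its in situ hybridizations at E6.5, the study describes the mutant embryos as slightly younger in stage. Differences of genotype and of stage cannot be told apart in these libraries. The number of embryos per library is not given in the sources used here. With 1 library per genotype no difference has a replicate check, and no p-value is given.

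Fibrillar collagens, led by types I, III and V, form the fibrils of connective tissue and are made mainly by mesenchymal cells such as fibroblasts. Type IV collagen forms the network of basement membranes with laminin, and in the early mouse embryo parietal endoderm deposits large amounts of it in Reichert's membrane, while visceral endoderm and epiblast share a thinner one. Chains are hydroxylated and folded in the endoplasmic reticulum, secreted, trimmed by proteases and crosslinked by lysyl oxidases, and cells bind them through integrins and discoidin domain receptors.

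Levels are the deposited FPKM values, fragments scaled by transcript length and library size, so that levels of different genes are on a scale per length. Where 3 values follow a name, they are for wild type, tw18/+ and tw18/tw18 in this order, and a range in brackets after a ratio is its 95% interval for counting error only. A value of 0 can be a failed estimate and is given as listed at 0. The spacing of low values gave a depth of about 14.8 M fragments in wild type, 21.0 M in tw18/+ and 20.7 M in tw18/tw18. The FPKM of *Ppp2r1a* was 146, 81.7 and 12.8. It fell in the order of the labels, but the library labelled tw18/tw18 still held transcripts of this deleted gene, and their source was not tested. All 10 epiblast markers were detected in the 3 libraries, but so were all 10 markers of decidua, the maternal tissue around the embryo. The decidual prolactin *Prl8a2* stood at an FPKM of 1504 in wild type, 155 in tw18/+ and 377 in tw18/tw18. The libraries therefore also hold transcripts that the labelled tissue is not known for, and in bulk RNA fewer cells of a type cannot be told apart from less RNA per cell.

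Summed over the 44 genes, collagen FPKM was 270 in wild type, 265 in tw18/+ and 639 in tw18/tw18. This was 0.0609%, 0.0581% and 0.167% of all FPKM of the library. The fibrillar genes summed to 58.5, 53.7 and 268, the basement-membrane genes to 181, 187 and 306, and the other genes to 30.3, 24.2 and 65.1. Thus the tw18/tw18 library had the highest sum in each class, and the wild-type and tw18/+ sums lay close together. The gene with the highest FPKM was *Col4a1* in wild type and tw18/+, whereas in tw18/tw18 *Col1a1* and *Col4a1* shared the first place with 174 each. Members with an FPKM of at least 1 numbered 17, 18 and 24, and those with at least 10 numbered 4, 4 and 10.

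**Figure D1:**
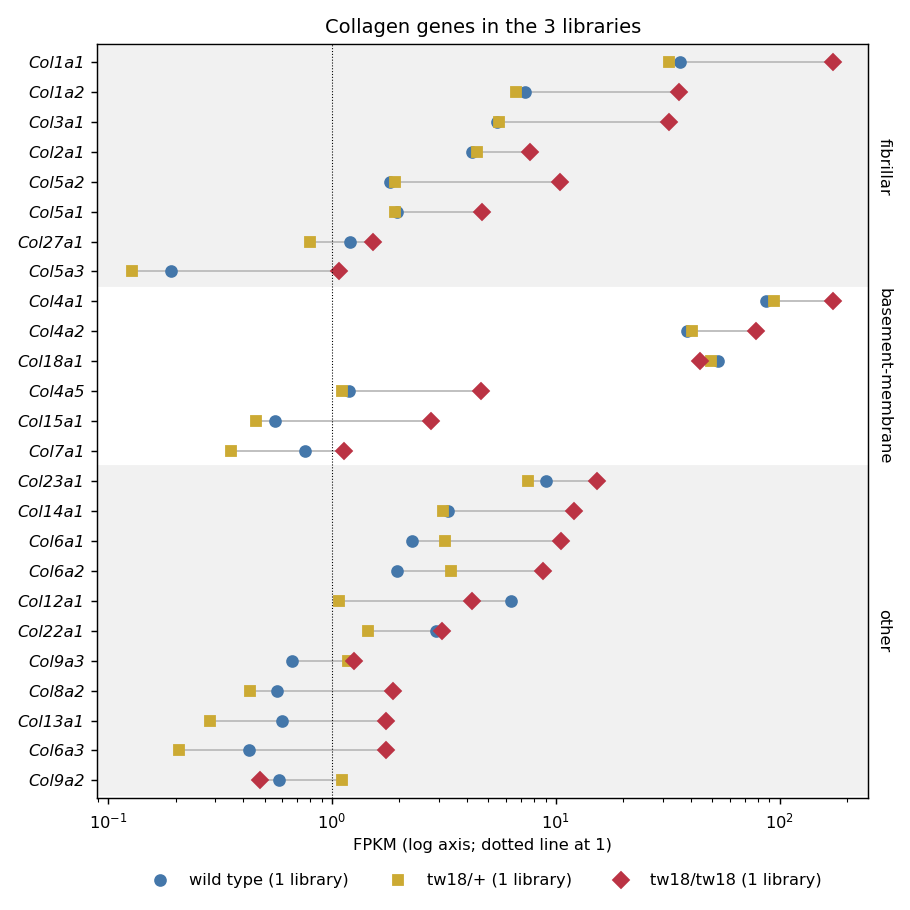
FPKM on a log axis of the 25 collagen genes that reached 1 in at least 1 library, by class and, within a class, by mean level. Each symbol is 1 library. For 22 of the 25 genes the tw18/tw18 symbol lies to the right of both others, and *Col18a1*, *Col12a1* and *Col9a2* are the exceptions.

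A gene was called higher or lower in a pair of libraries when the log2 ratio of its FPKM values, taken without a pseudocount, was at least 1 in size and the larger value at least 1. In tw18/tw18 against wild type, 24 members could be called, of which 16 were higher and 0 lower. Of the 12917 genes of the table that could be called by the same rule, 15.1% were higher and 6.94% lower. Shares of all genes called are meant in this sense below, over the genes that could be called in that pair and setting. In tw18/tw18 against tw18/+, 25 members could be called, with 18 higher and 1 lower, beside 14.9% higher and 5.65% lower of all genes. Both comparisons use the same tw18/tw18 library, so they are not independent. In tw18/+ against wild type, 0 of 19 members were higher and 2 lower, and over all genes the shares were 4.70% and 5.02%.

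Of the 25 members with an FPKM of at least 1 in any library, 7 were below 1 in wild type and at or above 1 in tw18/tw18. In this pair they entered only by their high value there. They were *Col5a3*, *Col6a3*, *Col7a1*, *Col8a2*, *Col9a3*, *Col13a1* and *Col15a1*, and all but *Col7a1* and *Col9a3* were called higher. With a filter on the mean of the 3 libraries instead, chosen after seeing the data, 19 members remained, of which 12 were higher and 0 lower in tw18/tw18 than in wild type, beside 12.3% higher of all genes. Against tw18/+ 13 were higher, again beside 12.3%. The mean includes tw18/tw18, so this filter also depends on that library. *Col15a1*, with 0.558, 0.458 and 2.76, still passed by its tw18/tw18 value and was among those called higher. Over all 44 members, whatever the size of the difference, 33 had a larger value in tw18/tw18 than in wild type, 8 a smaller one and 3 the same. Over all genes with unequal values 53.3% were larger. For the 16 members that reached an FPKM of 1 in each library, the median log2 ratio to wild type was 1.57. For the 11069 genes of the table that did so it was -0.05.

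**Figure D2:**
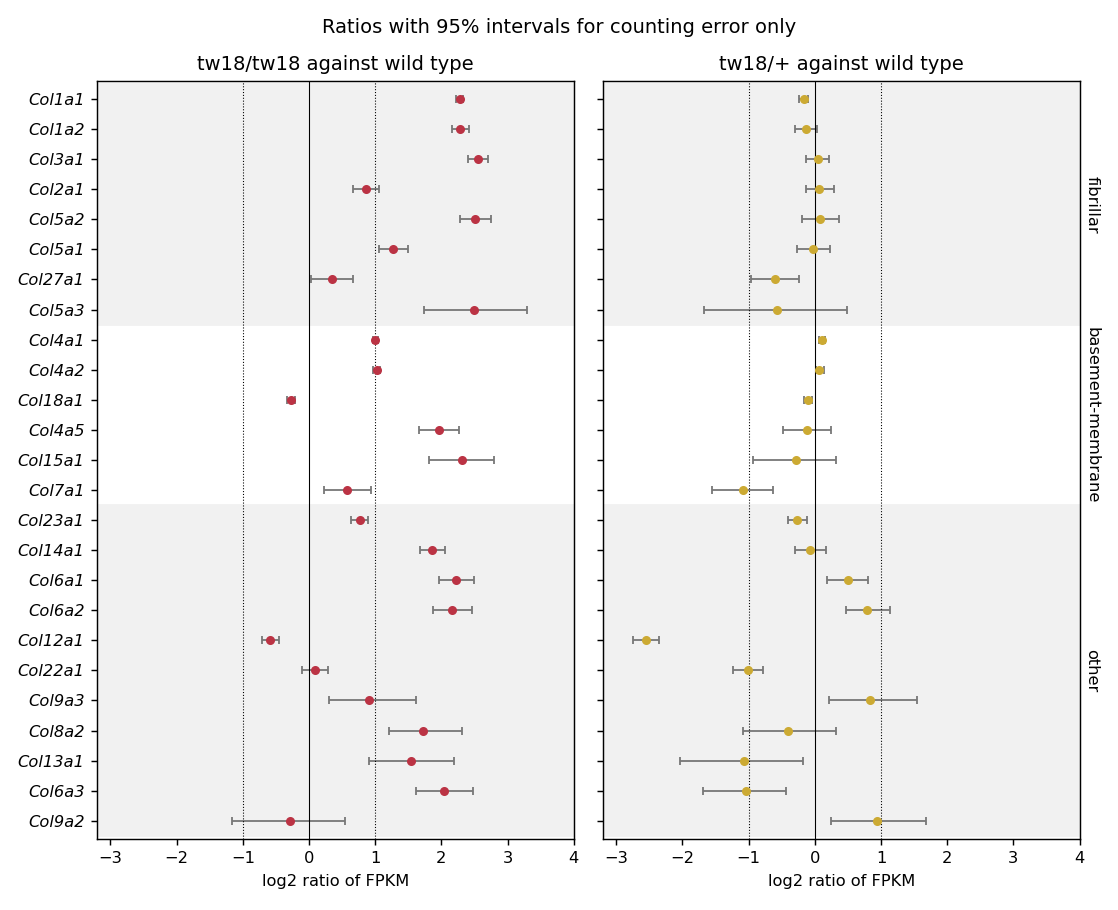
Log2 ratio of FPKM to wild type for the same 25 genes, in tw18/tw18 on the left and in tw18/+ on the right. Bars are 95% intervals for counting error only, from estimated fragments, and dotted lines mark a log2 ratio of 1 in size. On the left 16 genes lie at or beyond the upper line, on the right none; *Col12a1* lies lowest on the right.

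Among fibrillar genes, 6 of the 8 that could be called were higher in tw18/tw18 than in wild type, beside 15.1% of all genes. Against tw18/+ 6 of 8 were higher, beside 14.9%, and 0 were lower in either pair. Of the 6, *Col5a3* entered both comparisons only by its tw18/tw18 value. The genes called encode chains of types I, III and V. The median log2 ratio of the 6 fibrillar genes with an FPKM of at least 1 throughout was 2.28 against wild type and 2.43 against tw18/+, and 0.01 between tw18/+ and wild type.

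*Col1a1*, which encodes the alpha1 chain of type I collagen, the main protein of fibrils in skin and bone, lies on Chr 11 from 94936224 to 94953042 (GRCm38). Its FPKM was 35.9 in wild type, 32.0 in tw18/+ and 174 in tw18/tw18. The homozygous library was thus 4.85-fold above wild type, with an interval of 4.67 to 5.04, and 5.43-fold above tw18/+. *Col1a2*, the gene of the alpha2 chain, had 7.29, 6.63 and 35.5, and its ratio to wild type was 4.86 (4.45 to 5.32). Although the genes lie on different chromosomes, the FPKM of *Col1a1* divided by that of *Col1a2* was 4.92, 4.84 and 4.91 in the 3 libraries.

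*Col3a1* encodes the only chain of type III collagen, which is mixed with type I in soft tissue. It had an FPKM of 5.44, 5.58 and 31.9, a ratio of 5.87 (5.31 to 6.5) to wild type, the largest of the fibrillar genes above an FPKM of 1 throughout. *Col5a2*, its neighbour on Chr 1, had 1.82, 1.92 and 10.4, and a ratio of 5.71 (4.88 to 6.74). Their ends face each other at a distance of 24614 bp.

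Type V collagen starts fibrils and sets their width. *Col5a1*, the gene of its alpha1 chain, had an FPKM of 1.95, 1.92 and 4.70, only 2.42-fold (2.09 to 2.81) above wild type. The intervals of *Col5a1* and *Col5a2* do not overlap, and the ratio of *Col5a1* to *Col5a2* was 1.07 in wild type, 0.999 in tw18/+ and 0.453 in tw18/tw18. *Col5a3*, a chain found in fewer tissues, was low with 0.190, 0.128 and 1.07, or about 17, 16 and 132 fragments. Its ratio to wild type was 5.63 with a wide interval of 3.34 to 9.82.

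**Figure D3:**
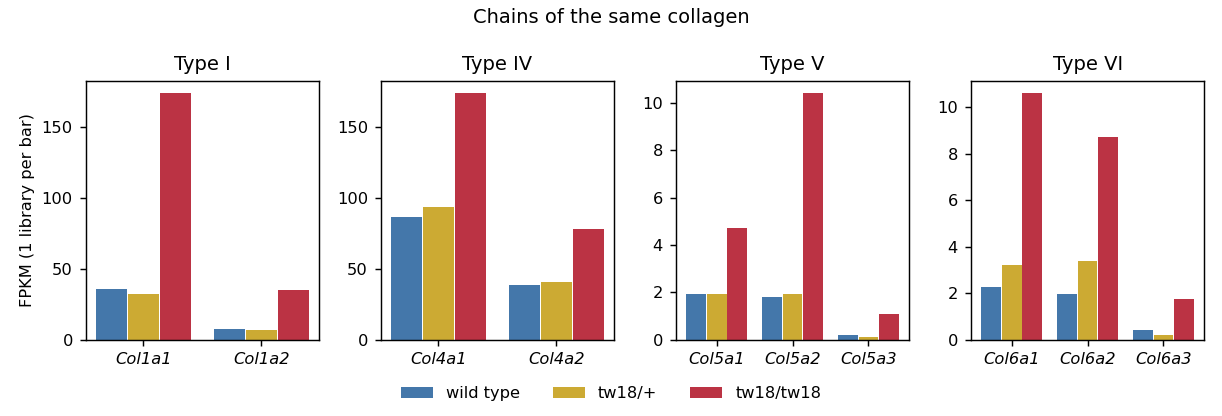
FPKM of the genes for chains of types I, IV, V and VI, with 1 bar per library and a separate axis from 0 in each panel. The proportion of the chains is alike in the 3 libraries for types I and IV, while in type V *Col5a2* stands above *Col5a1* in tw18/tw18.

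The remaining fibrillar genes differed less or were low. *Col2a1*, the cartilage collagen gene, had an FPKM of 4.22, 4.44 and 7.69, a ratio of 1.82 (1.59 to 2.08) that stayed under the threshold. *Col27a1*, also expressed in cartilage, had 1.20, 0.795 and 1.53. *Col24a1* went the other way below an FPKM of 1, with 0.477 in wild type, 0.138 in tw18/+ and 0.102 in tw18/tw18, or about 49, 20 and 15 fragments. *Col11a1* was listed at 0 in wild type and had 0.0642 and 0.351 in the others. *Col11a2*, the 1 collagen gene on Chr 17, starts at 34039437, outside the stretch that the study maps as deleted, and had 0.0517, 0.0833 and 0.447. Both encode chains of type XI, which is built into cartilage fibrils.

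Translated from the annotated transcripts, the longest unbroken run of glycine-X-Y triplets was 337 to 344 triplets in 9 of the 11 fibrillar genes and 216 and 217 in *Col24a1* and *Col27a1*. The 6 genes called higher were all among the 9 with the long run, as were *Col2a1*, *Col11a1* and *Col11a2*. Of the 2 genes with the shorter run only *Col27a1* could be called, so no link between run length and the calls can be read from this. In the *Col4* genes the run was broken into 23 to 27 pieces of up to 66 triplets.

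The sequence before the start of the transcript was compared for members that were higher together. RefSeq promoters of GRCm38.p6 were found for 35 of the 44 genes, without *Col1a1*, *Col2a1*, *Col4a3*, *Col5a2*, *Col9a3*, *Col12a1*, *Col14a1*, *Col22a1* and *Col26a1*. Shown are the 120 bases before the start for the 3 fibrillar genes that were called higher against both other libraries and whose window overlaps no exon, 5' to 3' on the gene's strand. Capitals mark the letters TATAAA or GGGCGG, the latter also on the other strand as CCGCCC. The windows lie at chr1:45311418-45311537 (plus strand), chr2:27886305-27886424 (plus strand) and chr9:20815068-20815187 (minus strand).
Col3a1: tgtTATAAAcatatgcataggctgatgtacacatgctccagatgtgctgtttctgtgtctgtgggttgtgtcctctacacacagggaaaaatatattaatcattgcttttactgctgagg
Col5a1: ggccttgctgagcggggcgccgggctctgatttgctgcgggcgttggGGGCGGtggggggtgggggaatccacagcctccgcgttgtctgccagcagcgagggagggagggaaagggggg
Col5a3: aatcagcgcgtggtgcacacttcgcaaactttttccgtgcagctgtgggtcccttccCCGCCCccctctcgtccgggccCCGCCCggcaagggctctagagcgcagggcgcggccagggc

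In *Col3a1* the letters TATAAA begin at base -117 from the start, while *Col5a1* holds 1 GGGCGG and *Col5a3* 2, both on the other strand. No motif was shared by all 3 windows. The 35 member genes had 38 promoter entries. Of these entries, 18 held GGGCGG within 120 bases before the start, beside 26.5% of 32851 promoters. TATAAA was found in 3 of the 38 entries (6.34% of all promoters) and CCAAT in 6 (21.3% of all promoters), both strands being searched. Of the other genes called higher against wild type, *Col1a2* and *Col4a2* held CCAAT in this window, and *Col4a2*, *Col4a5*, *Col6a2* and *Col8a2* held GGGCGG. The letters are a description of the windows and not evidence of binding.

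In basement membranes, 4 of 6 members that could be called were higher in tw18/tw18 than in wild type, beside 15.1% of all genes. Against tw18/+ 3 of 6 were higher, beside 14.9%, and 0 were lower in either pair. *Col15a1*, called in both pairs, and *Col7a1*, called against tw18/+, entered only by their tw18/tw18 values. *Col4a1* and *Col4a2* encode the chains of the common type IV network. *Col4a1* stood at an FPKM of 86.8 in wild type, 94.0 in tw18/+ and 174 in tw18/tw18, and *Col4a2* 38.6, 40.7 and 78.2. Their ratios to wild type were 2.0 (1.95 to 2.06) and 2.03 (1.95 to 2.10), at the threshold of the call, and their ratios to tw18/+ were 1.85 and 1.92, just under it. Their increase was therefore smaller than that of type I, and *Col1a1* divided by *Col4a1* was 0.413, 0.341 and 1.0 in the 3 libraries.

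The pair lies head to head on Chr 8, with starts that overlap by 22 bp from 11312805 to 11312826. The ratio of *Col4a1* to *Col4a2* was 2.25, 2.31 and 2.22. The other type IV pairs are also head to head. *Col4a5*, on the X chromosome and mutated in Alport syndrome of the kidney, had an FPKM of 1.19, 1.11 and 4.64, 3.88-fold (3.17 to 4.79) above wild type. Its partner *Col4a6*, which starts 1308 bp away, stayed below 1 with 0.251, 0.359 and 0.839, a ratio of 3.35 (2.15 to 5.48). *Col4a3* and *Col4a4*, 71 bp apart on Chr 1, were listed at 0 in wild type and had an FPKM of 0.103 and 0.301 in tw18/tw18. The ratio to wild type of *Col4a5* was thus above that of *Col4a1*, with intervals that do not overlap.

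*Col18a1* and *Col15a1* encode related collagens with heparan or chondroitin sulfate chains. *Col18a1*, whose end piece is endostatin, stood second to *Col4a1* among collagen genes in wild type and tw18/+ and had an FPKM of 53.2, 49.6 and 44.1. It was the 1 gene of its class that was lower in tw18/tw18 than in wild type among those that could be called, by a ratio of 0.828 (0.792 to 0.865), far from the threshold. Its log2 ratio to tw18/+ was -0.17, and 0.08 with libraries scaled to equal FPKM sums. *Col15a1* had 0.558, 0.458 and 2.76, a ratio of 4.94 (3.52 to 6.91). *Col7a1*, the gene of the anchoring fibrils under the epidermis, had 0.756, 0.355 and 1.13 and was called higher against tw18/+ but not against wild type.

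Type VI collagen forms beaded filaments close to cells. *Col6a1* stood at an FPKM of 2.28 in wild type, 3.21 in tw18/+ and 10.6 in tw18/tw18, 4.65-fold (3.88 to 5.64) above wild type. *Col6a2*, 85161 bp from it on Chr 10, had 1.96, 3.39 and 8.74, a ratio of 4.46 (3.65 to 5.52). *Col6a3*, the gene of the long chain that joins them, had 0.425, 0.207 and 1.75, a ratio of 4.11 (3.08 to 5.55). These 3 were called higher in tw18/tw18 against both other libraries. In tw18/+ *Col6a1* and *Col6a2* stood above wild type by ratios of 1.41 (1.14 to 1.75) and 1.73 (1.38 to 2.19), whereas *Col6a3* stood below it by a ratio of 0.486 (0.309 to 0.737). *Col6a1* divided by *Col6a3* was therefore 5.35, 15.5 and 6.05.

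The genes of the other long chains, *Col6a4*, *Col6a5* and *Col6a6*, follow each other on Chr 9 and stayed below an FPKM of 1. *Col6a4* had 0.0487, 0.0209 and 0.659, *Col6a5* 0.109, 0.0558 and 0.802, and *Col6a6* was listed at 0 in wild type and tw18/+ and had 0.106 in tw18/tw18. In each, the tw18/tw18 value was the highest of the 3, with about 99, 152 and 19 fragments.

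Collagens that sit on the surface of fibrils differed among themselves. *Col14a1* had an FPKM of 3.30, 3.13 and 12.0, a ratio of 3.63 (3.19 to 4.16) to wild type. *Col12a1* had 6.31 in wild type, 1.08 in tw18/+ and 4.21 in tw18/tw18. It was thus 5.84-fold lower in tw18/+ than in wild type, from about 1062 to 257 fragments, the largest difference between these libraries among the members that could be called. In tw18/tw18 it was 3.90-fold (3.40 to 4.50) above tw18/+ and, by a ratio of 0.668 (0.612 to 0.729), below wild type, so that the direction depended on the reference. *Col22a1*, known from the junction of muscle and tendon, had 2.92, 1.45 and 3.11, with a ratio of 0.496 (0.423 to 0.583) in tw18/+ to wild type, at the threshold.

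Type IX collagen covers the fibrils of cartilage. *Col9a2* had an FPKM of 0.580, 1.11 and 0.475 and was the 1 member called lower in tw18/tw18 than in tw18/+, on about 27 against 65 fragments. *Col9a3* had 0.662, 1.18 and 1.25. *Col9a1* had 0.0372 and 0.147 and was listed at 0 in tw18/tw18. *Col16a1* stayed just below 1 with 0.556, 0.339 and 0.962, *Col20a1* had 0.311, 0.0990 and 0.224, and *Col19a1*, which faces *Col9a1* on Chr 1, was listed at 0 in all libraries.

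Among collagens that span the cell membrane, *Col23a1* was the most abundant gene of the other collagens in each library, with an FPKM of 9.02, 7.53 and 15.3. Its ratio in tw18/tw18 was 1.70 (1.56 to 1.85) to wild type and 2.04 (1.88 to 2.21) to tw18/+, the latter just past the threshold. *Col13a1*, found at cell contacts and the neuromuscular junction, had 0.599, 0.286 and 1.74, a ratio of 2.91 (1.88 to 4.58) to wild type. *Col25a1* was listed at 0 in wild type and tw18/+ and had 0.278, and *Col17a1*, the collagen of hemidesmosomes, was listed at 0 except for 0.0764 in tw18/+.

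The network-forming *Col8a2*, known from the cornea, had an FPKM of 0.568, 0.431 and 1.88, 3.30-fold (2.30 to 4.95) above wild type. Its partner *Col8a1* had 0.156, 0 and 0.0408, and *Col10a1*, the gene of growth plate cartilage, 0.393, 0.0166 and 0.10. Hence these low genes, with at most 17 fragments, had their largest value in wild type. *Col26a1* had 0.0803, 0.460 and 0.848, and *Col28a1* was listed at 0 except for 0.0245 in tw18/+.

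Genes that make and handle collagen were counted from lists written from general knowledge. These lists and the marker lists below were chosen with earlier results of these data known. For hydroxylation and folding in the endoplasmic reticulum, 6 of 19 genes were higher in tw18/tw18 than in wild type and 0 lower. Over all genes 15.1% were higher and 6.94% lower in this pair. Against tw18/+ 2 of 20 were higher and 1 lower, beside 14.9% and 5.65% of all genes. The share higher against tw18/+ was thus below that of all genes. Between tw18/+ and wild type 1 of 20 was higher and 0 lower, beside 4.70% and 5.02% of all genes. *Serpinh1*, the chaperone HSP47 that binds the triple helix, had an FPKM of 71.1, 82.1 and 159, a ratio of 2.23 to wild type. *P4hb*, a subunit of prolyl 4-hydroxylase that also serves other proteins, had 275, 262 and 305. *Fkbp14*, a prolyl isomerase, had 0.986, 1.43 and 4.67, and *P4ha2*, a catalytic subunit of prolyl 4-hydroxylase, 7.72, 8.49 and 18.3. The other genes higher than in wild type were *Plod2*, *Leprel4* and *Crtap*, and all 6 had ratios to wild type from 2.0 to 4.74. Of the 6, *Fkbp14* entered against wild type only by its tw18/tw18 value.

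Of the enzymes for cleavage and crosslinking, 3 of 8 were higher in tw18/tw18 than in wild type and 6 of 8 higher than in tw18/+, with 0 lower. Over all genes 15.1% and 14.9% were higher in these pairs. *Pcolce*, which enhances the removal of the C-terminal propeptide, had an FPKM of 7.20, 9.44 and 30.8. *Loxl1*, a lysyl oxidase, had 0.759, 0.497 and 4.58, and *Loxl2* 13.5, 13.3 and 19.7. *Loxl1*, called higher in both pairs, entered them only by its tw18/tw18 value. *Bmp1*, the protease that removes the C-terminal propeptide, and *Lox*, the main crosslinking enzyme of fibrils, were the 2 of 7 genes that were lower in tw18/+ than in wild type, with 8.85, 3.84 and 13 for *Bmp1* and 9.58, 2.88 and 12.4 for *Lox*. Over all genes 5.02% were lower in this pair. As for *Col12a1*, the tw18/+ library was lowest for *Bmp1* and *Lox*, but these 2 were highest in tw18/tw18 and *Col12a1* in wild type. Other members, such as *Col1a1* and *Col22a1*, were also lowest in tw18/+.

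The small proteoglycans that coat fibrils gave 3 higher and 1 lower of 4 in tw18/tw18 against wild type. Against tw18/+ they gave 3 higher and 0 lower of 4. All-gene shares were 15.1% higher and 6.94% lower against wild type, and 14.9% and 5.65% against tw18/+. *Dcn*, decorin, had an FPKM of 4.0, 3.15 and 17.8 and *Bgn*, biglycan, 19.9, 22.3 and 69.9. *Lum* was the other gene called higher, and *Omd* the lower one, with 2.61, 2.10 and 1.22. *Lum*, at 0.907 in wild type, entered that pair only by its tw18/tw18 value of 2.59. Between tw18/+ and wild type 0 of 4 were called.

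Of the receptors, 2 of 6 were higher and 1 lower in tw18/tw18 than in wild type, beside 15.1% and 6.94% of all genes. Against tw18/+ 2 of 5 were higher and 0 lower, beside 14.9% and 5.65%. *Itga1*, the integrin chain that prefers type IV collagen, had an FPKM of 0.702, 1.13 and 4.11, and *Ddr2*, which binds fibrillar collagens, 0.821, 0.838 and 3.08. These were the 2 called higher. Both entered against wild type only by their tw18/tw18 values, as did *Ddr2* against tw18/+. The broadly used *Itgb1* had 41.6, 41.8 and 47.7 and *Ddr1*, the epithelial receptor, 19.9, 16.4 and 21.9. *Itga2* was lower in both tw18 libraries than in wild type, with 2.40, 0.455 and 0.828. It was the 1 of 5 called between tw18/+ and wild type, where 5.02% of all genes were lower.

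**Figure D4:**
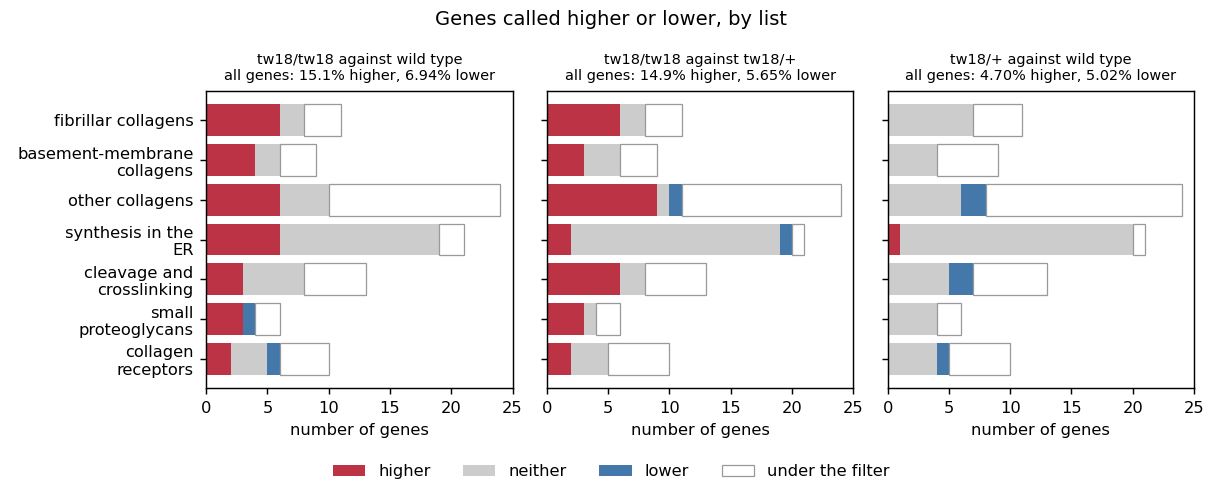
Number of genes of each list that were called higher, neither or lower, or were under the filter, in the 3 pairs of libraries, with the share of all genes called above each panel. Fibrillar collagens show 6 genes higher of 11 in the first 2 panels and none in the third.

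Markers of tissues that could contribute collagen transcripts differed between the same libraries. The 10 markers of stromal fibroblasts summed to an FPKM of 44.2 in wild type, 53.3 in tw18/+ and 141 in tw18/tw18. In tw18/tw18 6 of 10 were higher than in wild type and 7 of 10 higher than in tw18/+, with 0 lower. For this and the following lists, the shares of all genes were 15.1% higher and 6.94% lower against wild type, and 14.9% and 5.65% against tw18/+. *Mfap5* of elastic microfibrils had 3.34, 7.10 and 29.8, *Fbn1* 1.69, 2.43 and 13, *Fbln1* 15.9, 21.3 and 32.7, and the receptor gene *Pdgfra* 7.18, 9.62 and 31.6. *Dcn* and *Lum* belong to this list as well as to the proteoglycans. Of the genes called higher, *Lum* entered against wild type, and *Twist2* against tw18/+, only by their tw18/tw18 values. The decidua list was split against wild type, with 6 of 10 higher and 2 lower, whereas against tw18/+ 9 of 10 were higher and 0 lower. Its sums were 1788, 314 and 877. *Prl8a2* alone made up 68.4% of the mean of these sums, and the sums stood in the order of its values. By contrast, 8 of the 10 markers had a larger value in tw18/tw18 than in wild type. The uterine genes *Hoxa11*, with 3.67, 6.87 and 30.8, *Wnt4*, with 1.69, 3.32 and 11.2, and *Des*, with 45.5, 65.9 and 201, were highest in tw18/tw18, while *Prl8a2* and *Prl3c1* were highest in wild type.

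Endothelial markers summed to 61.2, 49.2 and 128, with 6 of 10 higher in tw18/tw18 than in wild type, 9 of 10 higher than in tw18/+ and 0 lower. Among them *Cdh5* had 23.2, 12.9 and 38.8, *Egfl7* 16.6, 18.7 and 23.2, *Tek* 0.280, 1.04 and 3.25, and *Eng* 2.72, 2.51 and 15.6. *Tek* and *Tie1* entered against wild type only by their tw18/tw18 values, as did *Kdr* and *Tie1* against tw18/+. The study counts *Eng* among mesodermal genes that are higher in the mutant, so this list does not mark endothelium alone. Parietal endoderm markers summed to 321, 388 and 804, with 6 of 9 higher than in wild type, 3 of 9 higher than in tw18/+ and 0 lower, led by *Sparc* with 136, 160 and 358 and *Lamc1* with 62.9, 82.5 and 156. *Stra6* had 8.16, 12.9 and 59.0 and *Pth1r* 9.84, 14.7 and 31.0. Several genes of that list encode basement-membrane proteins that other cells also make.

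Extra-embryonic ectoderm markers, from the part of the embryo that was to be removed, summed to 35.8, 29.6 and 73.8. Of these, 6 of 8 were higher and 0 lower against either library. They included *Tfap2c* with 6.36, 5.99 and 18.4 and *Esrrb* with 1.19, 0.939 and 3.91, while *Ets2* had 12.8, 11.5 and 16.4. *Cdx2* entered against wild type, and *Esrrb* against tw18/+, only by their tw18/tw18 values. Smooth muscle markers summed to 28.1, 22.9 and 38.2, with 2 of 5 higher and 2 lower than in wild type and 2 of 4 higher and 1 lower than in tw18/+. *Acta2* had 1.38, 1.37 and 7.0, *Tagln* 3.33, 4.90 and 11.9, *Smtn* 20.1, 14.0 and 18.3 and *Cnn1* 1.68, 2.35 and 0.446, and *Actg2* was listed at 0 in tw18/tw18, the 1 marker of the 8 lists at 0 in any library.

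Markers of the labelled tissue itself went the other way. The 10 epiblast markers summed to 1910, 2035 and 976, with 0 of 10 higher and 5 lower in tw18/tw18, against wild type as against tw18/+. *Pou5f1* had an FPKM of 628, 721 and 274, *Dnmt3b* 719, 733 and 359, *Nanog* 23.0, 27.1 and 5.35 and *Tdgf1* 74.5, 72.0 and 19.2. Visceral endoderm markers summed to 858, 831 and 1096. Against wild type 0 of 10 were called. Against tw18/+ 2 were higher, *Amn* and *Rbp4*, or 20.0% beside 14.9% of all genes. Of the visceral endoderm markers *Apoa1* had 246, 233 and 337, *Apob* 131, 142 and 156, *Rbp4* 83.8, 79.0 and 159 and *Afp* 106, 110 and 59.5. The part of these tissues in the collagen differences was not tested.

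**Figure D5:**
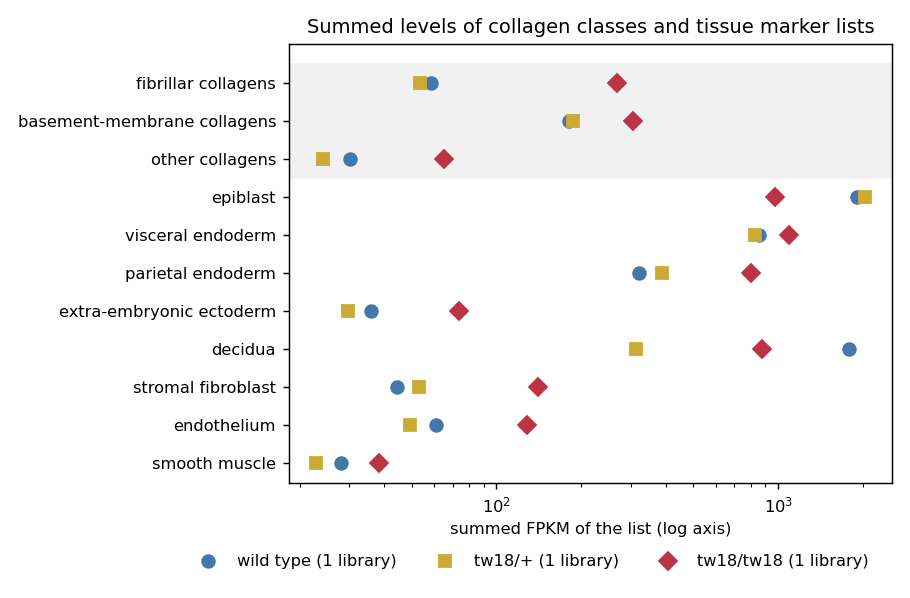
Summed FPKM, on a log axis, of the 3 collagen classes (shaded) and the 8 tissue marker lists, with 1 symbol per library. The tw18/tw18 symbol lies farthest right for every collagen class and for 6 of the marker lists, and to the left of both others for epiblast. In the decidua list *Prl8a2* alone made up 68.4% of the mean sum.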

How the data were processed

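RNA of 3 libraries, 1 per genotype, was sequenced by the authors as 50 bp paired-end reads. Per the labels, the RNA was total RNA and the libraries were primed with random hexamers. According to the submitters' processing notes and the methods of the study, reads were mapped to mm10 (GRCm38) with TopHat2 and Bowtie 1.0.0, and Cuffdiff (Cufflinks 2.2.1) gave the FPKM values that the authors deposited as 1 table of 23421 gene symbols. The annotation, the library normalization and the use of strand in counting are not given in the sources used here. FPKM is relative within a library, so an abundant gene lowers the others.

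Ratios and log2 ratios were computed from the deposited FPKM values in Python 3.11.15 using pandas 2.3.3, scipy 1.17.1, numpy 2.4.6 and, for plots, matplotlib 3.10.9. The FPKM that 1 fragment is worth was estimated from low values of genes with 1 annotated transcript of at least 500 bp, shortened by 150 bp for the length of a fragment. Of the 214, 325 and 252 low values used, 74.5% to 75.8% came within 0.2 of a whole fragment number, so depths and fragments are approximate. Intervals of ratios are exact 95% binomial (Clopper-Pearson) intervals from these fragments. PCR copies are not independent molecules, so they hold for counting error alone.

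Named are all members with an FPKM of at least 1 in any library. Other members are named where more than 10 fragments were estimated or where they neighbour a named gene. Of each other list, the 2 genes with the highest mean are named, and 2 by the log2 ratio of tw18/tw18 to wild type. These 2 had the largest log2 ratios in size, up or down, among genes whose larger FPKM was at least 1. Further genes were named after their values were seen. The lists cover synthesis, cleavage and crosslinking, proteoglycans, receptors and markers of epiblast, visceral endoderm, parietal endoderm, extra-embryonic ectoderm, decidua, stromal fibroblasts, endothelium and smooth muscle. The members and lists were chosen with earlier results of these data known. Positions and glycine-X-Y runs came from GENCODE M21 (GRCm38), the runs from the longest open reading frame of 1 transcript per gene, and promoters from RefSeq for GRCm38.p6. Alternatives were pseudocounts of 0.1 and 1, other filters, a log2 threshold of 2, centring on the median ratio, equal FPKM sums and, added later, a filter on the mean.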

Additional observations from a re-analysis of the deposited data

How the results depend on the processing

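No paired analysis was possible because each genotype has 1 library, and for the same reason no library could be left out. No call of a member turned to the other direction under the alternatives tried. Signs of values near 0 did turn. Equal FPKM sums moved the log2 ratio of *Col18a1* in tw18/tw18 to tw18/+ from -0.17 to 0.08, and between tw18/+ and wild type the fibrillar median of 0.01 and the basement-membrane median of -0.01 each lay on the other side of 0 in some settings (lowest fibrillar -0.14, highest basement-membrane 0.07, both with an FPKM of at least 5).

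In tw18/tw18 against wild type, 16 of 24 members were called higher beside 15.1% of all genes. This became 9 of 24 beside 9.50% with a pseudocount of 1, 9 of 13 beside 8.96% with an FPKM of at least 5, 9 of 24 beside 5.76% with a log2 threshold of 2, and 26 of 41 beside 24.2% without a filter, where 4 were lower beside 10.8%. The pseudocount of 1 removed the calls of *Col4a1*, *Col4a2*, *Col5a1*, *Col5a3*, *Col6a3*, *Col8a2* and *Col13a1*. The median log2 ratio of 1.57 became 1.18 with a pseudocount of 1, 1.02 with an FPKM of at least 5 and 1.78 with equal FPKM sums.

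In tw18/tw18 against tw18/+, 18 of 25 were higher beside 14.9%. This became 13 of 25 beside 9.18% with a pseudocount of 1, without *Col5a1*, *Col5a3*, *Col7a1*, *Col22a1* and *Col23a1*, 8 of 12 beside 9.24% with an FPKM of at least 5, 10 of 25 beside 4.75% with a log2 threshold of 2, and 31 of 43 beside 21.4% without a filter. The 1 member lower, *Col9a2*, became 4 without a filter, beside 12.1%, and 0 with a pseudocount of 1, an FPKM of at least 5, equal FPKM sums, a log2 threshold of 2 or the filter on the mean. The median of 1.54 became 1.24, 1.03 and 1.79 under the 3 settings named for the median above. Equal FPKM sums raised the log2 ratios of tw18/tw18 by 0.21 against wild type and 0.25 against tw18/+. They added calls for *Col2a1*, *Col9a3* and *Col16a1* in the former (19 of 25 beside 20.1%) and for *Col2a1*, *Col4a1*, *Col4a2*, *Col16a1* and *Col27a1* in the latter (23 of 26 beside 20.5%).

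In tw18/+ against wild type, the 2 members lower became 1 with a pseudocount of 1 or 0.1, an FPKM of at least 5 or a log2 threshold of 2, with *Col22a1* lost in each. Without a filter 6 of 40 were higher beside 15.8% and 10 lower beside 9.91%. Centring moved no count of calls. Depth limits the 19 members below an FPKM of 1, whose zeros are not shown to be absence.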
